A study of Homo sapiens with 8 samples.

Results

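The genes described here are 7 matrix metalloproteinases (MMP1, MMP2, MMP3, MMP9, MMP13, MMP14 and MMP15) and 3 tissue inhibitors of metalloproteinases (TIMP1, TIMP2 and TIMP3), found by symbol in the deposited count and FPKM tables. All 10 were present among the 61552 genes listed, and all 10 had enough reads to be among the 15923 genes tested. MMP2 passed the low-count filter only through its LM2 libraries, and MMP9 and MMP13 only through the LM2 control libraries, so some difference between groups was built into their selection for testing. The MMPs and TIMPs were read in 8 libraries of messenger RNA from breast cancer cells in culture, in 4 groups of 2 libraries.

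The groups were MDA231-LM2 cells (LM2 below) with a short hairpin RNA against TAF7 (shTAF7), LM2 cells with a control hairpin, MDA-MB-231 cells with shTAF7 and MDA-MB-231 cells with a control hairpin. MDA-MB-231 is a human triple-negative breast cancer cell line, and LM2 is a derivative of it selected for growth in the lung. The TAF7 protein belongs to TFIID, which binds core promoters and helps RNA polymerase II to assemble there, and the stated aim was to find genes under its control. A single TAF7 hairpin, number 3 in the titles, was used in both lines, and both control groups carried a hairpin too. All cells were grown in the same serum-containing medium. Whether the 2 libraries of a group, numbered 2 and 3, came from separate cultures is not stated, so the spread behind the p-values may be technical. Each library held 17217776 to 20292291 counts, at which 1 read is worth 0.0488 to 0.0583 CPM (counts scaled to a common library size).

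MMPs are zinc-dependent endopeptidases that cut collagens and other extracellular proteins, and they are made as inactive precursors that other proteases activate. MMP1 and MMP13 are secreted collagenases that cleave fibrillar collagen, MMP3 is a stromelysin with a broad range of matrix substrates, and MMP2 and MMP9 are the gelatinases, which cut denatured collagen and basement membrane collagen. MMP14 and MMP15 are anchored in the cell membrane, where MMP14 cleaves collagen and activates the MMP2 precursor. TIMPs bind the catalytic site of active MMPs, TIMP2 also helps MMP14 to present the MMP2 precursor, and TIMP3 stays bound to the extracellular matrix. MMP1 and MMP2 are known from earlier work with lung-seeking derivatives of MDA-MB-231 as genes linked to lung metastasis.

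TAF7 acts at promoters, so the 250 bases upstream of the annotated start are shown for 3 of the members that the RefSeq promoter table (GRCh38.p14) holds. That table matched 4 of the 10 members, MMP14, MMP15, TIMP1 and TIMP3. The transcripts of all 4 differed with the hairpin in LM2, in MDA-MB-231 or in both. Capitals mark each match to the GC box GGGCGG, searched on both strands, so that a match on the opposite strand reads CCGCCC. All sequences run 5′ to 3′ on the plus strand, which is the strand of each gene. The windows are chr14:22836335-22836584 for MMP14, chrX:47582186-47582435 for TIMP1 and chr22:32801455-32801704 for TIMP3.
MMP14: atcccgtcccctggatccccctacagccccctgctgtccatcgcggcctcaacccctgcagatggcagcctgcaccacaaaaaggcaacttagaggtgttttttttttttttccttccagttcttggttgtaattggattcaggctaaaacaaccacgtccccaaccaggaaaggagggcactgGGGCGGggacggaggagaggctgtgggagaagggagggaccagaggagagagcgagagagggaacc
TIMP1: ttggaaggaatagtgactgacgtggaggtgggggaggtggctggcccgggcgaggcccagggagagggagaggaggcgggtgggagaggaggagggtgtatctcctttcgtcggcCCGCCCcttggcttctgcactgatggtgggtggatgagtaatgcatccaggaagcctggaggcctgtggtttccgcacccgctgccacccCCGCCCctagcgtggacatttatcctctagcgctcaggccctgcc
TIMP3: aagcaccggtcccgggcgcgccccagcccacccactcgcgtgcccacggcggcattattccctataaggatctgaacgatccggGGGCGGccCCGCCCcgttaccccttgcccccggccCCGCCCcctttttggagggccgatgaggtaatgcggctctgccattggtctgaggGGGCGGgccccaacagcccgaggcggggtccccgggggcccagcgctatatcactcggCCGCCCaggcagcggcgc
The GC box was found at 1 place in the MMP14 window, 2 in TIMP1 and 5 in TIMP3, and at 5 places in the MMP15 window, which is not shown. Of all 35116 promoter windows of this length, 42.6% held at least 1 match. The AP-1 motif TGANTCA was found in none of the 4 windows (6.57% of all windows held it), and neither was TATAAA (10.7% of all windows). The windows are rich in G and C, at 56.8% in MMP14, 64.8% in TIMP1, 72.4% in TIMP3 and 74.8% in MMP15. A match or its lack describes the letters of the window and no binding.

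The hairpin lowered its target in every library. TAF7 had 145.3 ± 4.26 CPM in LM2 shTAF7 and 195.9 ± 0.873 CPM in the LM2 control (SD, n = 2 each here and below), or 74.2% of the control level. In MDA-MB-231 it had 106.5 ± 1.57 CPM with shTAF7 and 181.9 ± 3.84 CPM in the control, or 58.5%. The knockdown was smaller in LM2, by 0.34 ± 0.09 on the log2 scale (edgeR interaction, adjusted p = 0.00544). Both libraries of the LM2 control differed from the rest, with reads in 24490 and 24762 genes, against 22296 to 23434 genes in the other 6 libraries. These libraries enter the knockdown comparison in LM2 and the comparison of the lines under the control hairpin, but not the comparison of the lines under the TAF7 hairpin. The comparisons therefore share libraries, and their values for a gene are given side by side.

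Among the markers of the line, VIM, CD44, SPARC and AXL were well expressed, at 2140 to 3860 CPM summed, and ESR1, PGR and CDH1 had at most 5 counts in a library. ERBB2, EPCAM and GATA3, also listed as low or absent, were expressed, EPCAM at 93 to 194 and GATA3 at 80 to 170 counts per library. All markers of that list summed to 66.8 to 89.4 CPM, and ERBB2 held 77.0% to 82.2% of their counts. Markers of leukocytes summed to 0.104 to 1.38 CPM, with 2 to 4 of 5 at 3 counts or fewer in each group, and PTPRC had at most 5 counts in a library. Basal epithelial markers summed to 0.416 to 1.93 CPM. Of the 6 fibroblast markers, 3 or 4 were at 3 counts or fewer in each group, and COL1A2, DCN and LUM had at most 4 counts in a library. COL1A1 held 50.8% to 90.4% of their counts. Their sums were 14.7 and 16.5 CPM in LM2 shTAF7, 27.2 and 33.1 CPM in the LM2 control, 7.11 and 7.95 CPM in MDA-MB-231 shTAF7, and 8.28 and 9.62 CPM in the MDA-MB-231 control. PDGFRB was detected too, at 1.73 and 1.06 CPM, 4.62 and 4.74 CPM, 2.97 and 3.22 CPM, and 4.26 and 4.25 CPM in the same order of groups. Endothelial markers summed to 6.81 and 7.08 CPM, 10.1 and 10.2 CPM, 7.17 and 7.7 CPM, and 4.36 and 4.84 CPM in the same order of groups. Different genes led these sums. KDR held 76.6% of the counts in LM2 shTAF7 and 58.3% in the LM2 control. PECAM1 held 90.0% in MDA-MB-231 shTAF7 and 86.0% in the MDA-MB-231 control. COL1A1, MMP2 and MMP9 were each highest in the LM2 control. In LM2 shTAF7, COL1A1 (14.6 and 13.5 CPM) stayed above its MDA-MB-231 level (4.02 to 5.04 CPM), as did MMP2. MMP9 had 2 counts in each LM2 shTAF7 library and 0 to 2 in those of MDA-MB-231. The part of COL1A1 in the values of MMP2 and MMP9 was not tested.

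Per length of transcript, MMP1 and MMP14 were the most abundant MMP transcripts in LM2, MMP14 was in MDA-MB-231, and TIMP1 was the most abundant inhibitor in every group. In LM2 shTAF7 the mean FPKM (reads scaled to gene length and library total) fell in the order MMP1 (175.3), MMP14 (81.8), TIMP1 (76.6), TIMP2 (52.1), TIMP3 (12.9) and MMP3 (2.85), with the 4 others below 1. The libraries of MMP14 and TIMP1 overlapped there. In the LM2 control the order was MMP1 (92.9), MMP14 (91.7), TIMP1 (71.4), TIMP2 (67.2), TIMP3 (21.5) and MMP3 (2.33), with the libraries of MMP1 and MMP14 overlapping. MDA-MB-231 shTAF7 had TIMP1 (68.9), MMP14 (29.6), TIMP2 (21.3) and TIMP3 (20.8) at the head, the last pair overlapping. The MDA-MB-231 control had TIMP1 (50.5), MMP14 (23.0), TIMP2 (18.5) and TIMP3 (13.8), none of them overlapping, and all other members at 0.99 FPKM or less.

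**Figure D1:**
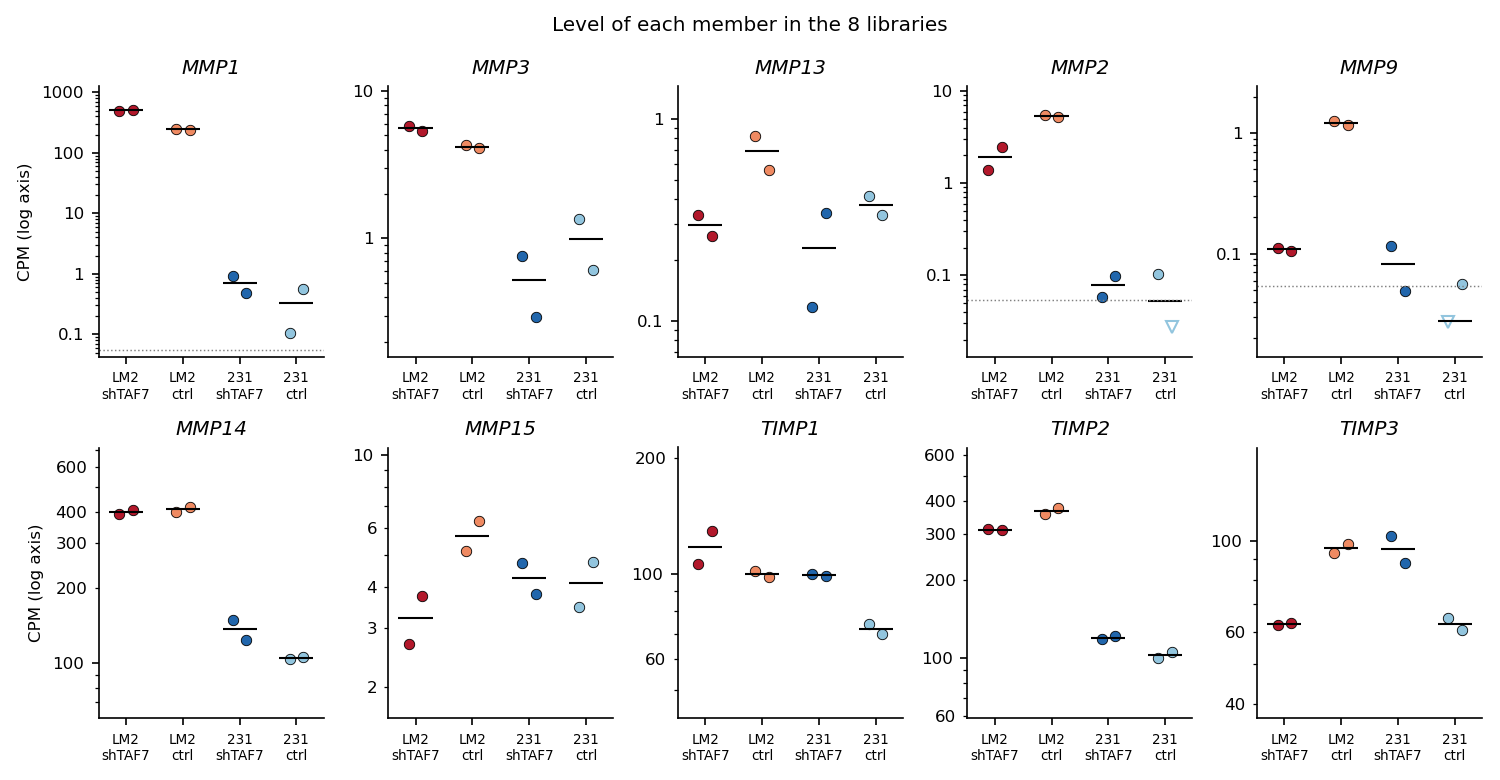
CPM of each member in each of the 8 libraries on a log axis of its own scale, with the 2 libraries of a group as points (number 2 left, number 3 right), their mean as a bar, libraries without a read as open triangles and the value of 1 read as a dotted line where it lies in range. MMP1 stands at 496.3 and 518.7 CPM in LM2 shTAF7, at 251.7 and 240.4 CPM in the LM2 control and below 1 CPM in MDA-MB-231, and TIMP3 is high in the LM2 control and in MDA-MB-231 shTAF7.

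Knockdown of TAF7 left a mixed pattern over the family, and it was not the same in the 2 lines. In LM2, 2 of the 10 members rose (MMP1 and TIMP1) and 5 fell (MMP2, MMP9, MMP15, TIMP2 and TIMP3), by edgeR's quasi-likelihood test at a Benjamini-Hochberg adjusted p under 0.05 over all tested genes. Of all tested genes 41.3% were called in that comparison, 21.8% as higher and 19.4% as lower. MMP9 and MMP13 passed the low-count filter only through the LM2 control libraries, so a fall in LM2 was favoured by their selection. Both enter the LM2 median given below. In MDA-MB-231, 4 members rose (MMP14, TIMP1, TIMP2 and TIMP3) and 0 fell, where 25.6% of all genes were called, 12.6% as higher and 12.9% as lower. At an unadjusted p under 0.05 only MMP3 was lower there, and DESeq2 called 0 members lower among the 7 it gave an adjusted p. The median log2 fold change was -0.43 over the members in LM2 and -0.016 over all genes. Over the 8 members with enough counts for a fold in MDA-MB-231 it was 0.30, against 0.0081 over all genes.

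**Figure D2:**
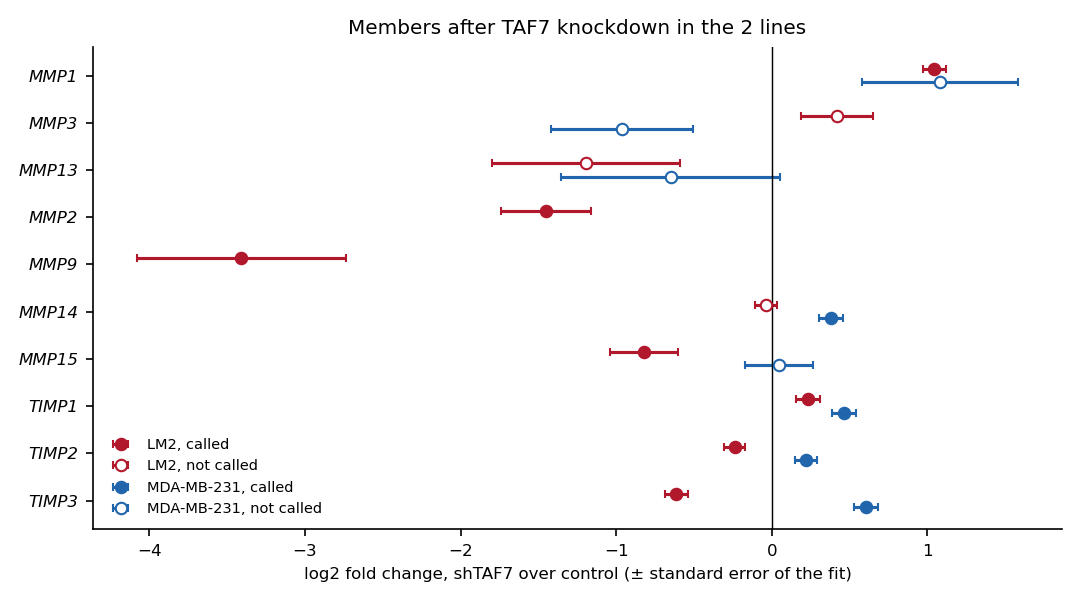
Log2 fold change of each member, shTAF7 over control, in LM2 (red) and MDA-MB-231 (blue), with bars for the standard error of the edgeR fit to 2 libraries per group and filled points for members past the test. MMP2 and MMP9 have no point in MDA-MB-231, where both groups held 3 counts or fewer. TIMP2 and TIMP3 lie left of 0 in LM2 and right of 0 in MDA-MB-231.

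The collagenase MMP1 stood at 2.06 times its control level in LM2 after knockdown. It had 8891 and 9823 counts in LM2 shTAF7, against 4572 and 4314 in the LM2 control, which is 507.5 ± 15.8 and 246.0 ± 7.97 CPM. Both shTAF7 libraries lay above both controls, with a log2 fold change of 1.04 ± 0.07 (edgeR adjusted p = 1.75e-16). With limma on log2(FPKM + 0.1) it was 0.92 and missed the threshold (adjusted p = 0.0632).
In MDA-MB-231 the same gene was close to the limit of detection, with 16 and 10 counts in shTAF7 and 2 and 10 counts in the control. The groups overlapped, and the log2 fold change of 1.08 ± 0.50 was not called (edgeR adjusted p = 0.113), though it passed at 2.65 without control replicate 3 (edgeR adjusted p = 0.0148). The difference between the lines was -0.03 ± 0.37 (edgeR adjusted p = 0.968), a value that 12 to 26 counts per MDA-MB-231 group determine only loosely. With limma on log2(FPKM + 1) that difference was 0.75 (adjusted p = 0.00601), on a scale that compresses the low values of MDA-MB-231.

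MMP1 also had the largest fitted difference between the lines among the members. LM2 exceeded MDA-MB-231 by 9.51 ± 0.14 on the log2 scale under the TAF7 hairpin and by 9.54 ± 0.16 under the control hairpin (edgeR adjusted p = 5.56e-44 and 7.15e-42). Those values rest on 26 and 12 counts summed over the MDA-MB-231 libraries, and the one under the control hairpin was 8.74 without MDA-MB-231 control replicate 2 and 11.1 without control replicate 3. MMP13, the other collagenase measured, stayed below 1 CPM in every library. It had 6 and 5 counts in LM2 shTAF7, 15 and 10 in the LM2 control, 2 and 7 in MDA-MB-231 shTAF7, and 8 and 6 in the MDA-MB-231 control. The LM2 groups did not overlap, but the log2 fold change of -1.19 ± 0.61 was not called (edgeR adjusted p = 0.111), while limma on log2(FPKM + 1) called it (-0.18, adjusted p = 0.0376). MMP13 passed edgeR's test in none of the 5 comparisons.

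MMP3, the stromelysin, was a low transcript that was higher in LM2. It had 104 and 102 counts in LM2 shTAF7, against 78 and 73 in the LM2 control, without overlap, and a log2 fold change of 0.42 ± 0.23 that was not called (edgeR adjusted p = 0.142). In MDA-MB-231 it had 13 and 6 counts in shTAF7 and 26 and 11 in the control, which overlapped, with a log2 fold change of -0.96 ± 0.46 (edgeR adjusted p = 0.119). That change passed without MDA-MB-231 control replicate 3 (-1.41, edgeR adjusted p = 0.033) or shTAF7 replicate 2 (-1.75, edgeR adjusted p = 0.0291).
The knockdown effect differed between the lines by 1.38 ± 0.51 (edgeR interaction, adjusted p = 0.0382). This call was lost with DESeq2 (adjusted p = 0.0799), with limma on FPKM (adjusted p = 0.135) and without any of 5 single libraries, with 0.71 without MDA-MB-231 control replicate 2 (edgeR adjusted p = 0.502), 0.82 without MDA-MB-231 shTAF7 replicate 3 (0.325), and 1.35 to 1.43 without LM2 control replicates 2 or 3 or LM2 shTAF7 replicate 2 (0.0544 to 0.0775). LM2 exceeded MDA-MB-231 by 3.45 ± 0.33 under the TAF7 hairpin and by 2.06 ± 0.30 under the control hairpin (edgeR adjusted p = 1.11e-12 and 7.75e-08). Single MDA-MB-231 libraries moved these sizes, to 4.22 without shTAF7 replicate 2 and 2.86 without shTAF7 replicate 3 under the TAF7 hairpin, and to 2.73 without control replicate 2 under the control hairpin.

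Both gelatinases were transcripts of LM2 at low level, and both fell there after knockdown. MMP2 had 25 and 47 counts in LM2 shTAF7, against 99 and 94 in the LM2 control, or 1.94 ± 0.768 and 5.34 ± 0.149 CPM. Every shTAF7 library lay below every control, and the log2 fold change was -1.45 ± 0.29 (edgeR adjusted p = 5.73e-05). MMP9 had 2 and 2 counts in LM2 shTAF7, against 23 and 21 in the LM2 control. It thus stood at 9.41% of its control level in the fit, with a log2 fold change of -3.41 ± 0.67 (edgeR adjusted p = 5.07e-05), which is 4 counts in all against 44. MMP9 passed the low-count filter only through the LM2 control libraries, so this direction was built into its selection for testing.

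In MDA-MB-231 neither gelatinase was above the floor of 3 counts per group. MMP2 had 3 counts with shTAF7 and 2 in the control, and MMP9 had 3 and 1, so no fold is given. Between the lines, MMP2 was higher in LM2 by a ratio of 24.5 under the TAF7 hairpin (95% counting interval 8.06 to 122) and of 99.2 under the control hairpin (27.1 to 825). For MMP9 the ratio was 1.36 under the TAF7 hairpin (0.23 to 9.3, not called) and 45.2 under the control hairpin (7.7 to 1830). The intervals cover counting error only. MMP2 passed the low-count filter only through LM2 libraries, and MMP9 only through the LM2 controls. A higher level in LM2 was thus built into their selection, for MMP9 under the control hairpin. For MMP9 this also favoured a downward difference between the knockdown effects, LM2 minus MDA-MB-231. The difference between the knockdown effects passed for MMP9 (edgeR interaction, adjusted p = 0.0366) and not for MMP2 (adjusted p = 0.332), though MMP2 passed with limma on log2(FPKM + 1) (adjusted p = 0.0048). The MMP9 call was lost without each of 7 libraries in turn, all but MDA-MB-231 control replicate 3 (edgeR adjusted p = 0.0671 to 0.267), and without the low-count filter (adjusted p = 0.0521).

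MMP14, the membrane-anchored collagenase and activator of MMP2, was among the most abundant members in every group. It rose with knockdown in MDA-MB-231, where it had 2552 and 2550 counts in shTAF7 and 1998 and 1892 in the control, or 136.6 ± 17.3 and 104.9 ± 1.38 CPM. The groups did not overlap, and the log2 fold change was 0.38 ± 0.07 (edgeR adjusted p = 0.00013). In LM2 it had 7035 and 7713 counts with shTAF7 (392.7 and 407.3 CPM) and 7279 and 7525 in the control (400.7 and 419.3 CPM), which overlapped (-0.04 ± 0.07, edgeR adjusted p = 0.72). The effects differed between the lines by -0.42 ± 0.10 (edgeR interaction, adjusted p = 0.00173). Over the alternatives this difference was -0.535 to -0.267, with the call lost in 1 of 15. The rise in MDA-MB-231 was 0.237 to 0.506, with the call lost in 1 of 16. LM2 exceeded MDA-MB-231 by 1.55 ± 0.07 under the TAF7 hairpin and by 1.97 ± 0.07 under the control hairpin (edgeR adjusted p = 1.02e-23 and 1.51e-27).

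MMP15, a second membrane-anchored MMP, was found at 2.68 to 6.30 CPM. It fell with knockdown in LM2, with 48 and 71 counts in shTAF7 and 93 and 113 in the control (-0.82 ± 0.22, edgeR adjusted p = 0.00192). Leaving out LM2 control replicate 3 (-0.66, edgeR adjusted p = 0.0603) ended the call, as did leaving out LM2 shTAF7 replicate 2 (-0.60, 0.0534). In MDA-MB-231 it had 81 and 78 counts in shTAF7 and 67 and 85 in the control, which overlapped (0.05 ± 0.22, edgeR adjusted p = 0.913). The difference between the lines of -0.87 ± 0.31 passed (edgeR interaction, adjusted p = 0.0307), but not with DESeq2 (adjusted p = 0.116) nor without MDA-MB-231 control replicate 2, MDA-MB-231 shTAF7 replicate 2, LM2 control replicate 3 or LM2 shTAF7 replicate 2 (edgeR adjusted p = 0.123 to 0.177). Between the lines MMP15 was called under the control hairpin alone (0.47 ± 0.21, edgeR adjusted p = 0.0431), and that call was lost in 7 of 16 alternatives. It was lost with DESeq2 (adjusted p = 0.145), without the low-count filter (edgeR adjusted p = 0.0669) and with every limma setting on FPKM (adjusted p = 0.0639 to 0.205). Leaving out MDA-MB-231 control replicate 2 (0.24) or LM2 control replicate 3 (0.30) ended it too. Under the TAF7 hairpin the log2 fold change of MMP15 was -0.39 ± 0.23 (edgeR adjusted p = 0.127).

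The 3 inhibitors were each called in both lines, with TIMP1 higher in both and TIMP2 and TIMP3 changed in opposite directions. TIMP1, a broad inhibitor of secreted MMPs, had 1895 and 2437 counts in LM2 shTAF7 and 1850 and 1757 in the LM2 control, or 117.2 ± 16.2 and 99.9 ± 2.78 CPM. The log2 fold change was 0.23 ± 0.07 (edgeR adjusted p = 0.0108). It rested on 1 library, being 0.10 without LM2 shTAF7 replicate 3 (edgeR adjusted p = 0.348) and 0.21 without LM2 control replicate 3 (0.0797). On the FPKM scale, which carries no TMM factor, it was 0.10 with limma (adjusted p = 0.36).
In MDA-MB-231, TIMP1 had 1710 and 2029 counts in shTAF7 and 1429 and 1246 in the control. The shTAF7 libraries, at 99.7 and 99.0 CPM, stood above the controls, at 74.3 and 69.7 CPM, with a log2 fold change of 0.46 ± 0.08 (edgeR adjusted p = 1e-05). The difference between the lines was -0.23 ± 0.11 and was not called (edgeR interaction, adjusted p = 0.108), though it was without LM2 shTAF7 replicate 3 (-0.34, adjusted p = 0.0116).

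TIMP2, the inhibitor that also takes part in MMP2 activation, fell in LM2. It had 5580 and 5858 counts there in shTAF7 and 6482 and 6746 in the control, or 310.4 ± 1.55 and 366.3 ± 13.5 CPM (-0.24 ± 0.07, edgeR adjusted p = 0.00272). In MDA-MB-231 it had 119.8 ± 1.86 CPM in shTAF7 and 102.8 ± 3.64 CPM in the control, without overlap, and the log2 fold change of 0.22 ± 0.07 passed (edgeR adjusted p = 0.0157). That call was lost without control replicate 2 (0.18, edgeR adjusted p = 0.261), control replicate 3 (0.25, 0.094) or shTAF7 replicate 3 (0.21, 0.0846). The difference between the lines, -0.46 ± 0.10 (edgeR interaction, adjusted p = 0.000244), was called under all alternatives run.

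TIMP3, the matrix-bound inhibitor, had the largest change among the TIMPs and crossed over between the lines. It had 1117 and 1191 counts in LM2 shTAF7, 1694 and 1765 in the LM2 control, 1762 and 1810 in MDA-MB-231 shTAF7, and 1248 and 1082 in the MDA-MB-231 control. In CPM, LM2 shTAF7 (62.6 ± 0.375) and the MDA-MB-231 control (62.7 ± 3.08) were at one level, and the LM2 control (95.8 ± 3.61) and MDA-MB-231 shTAF7 (95.5 ± 10.2) at a higher one. Knockdown thus lowered TIMP3 by 0.61 ± 0.08 on the log2 scale in LM2 (edgeR adjusted p = 6.08e-09), and in MDA-MB-231 the log2 fold change was 0.60 ± 0.08 (edgeR adjusted p = 4.47e-08). The difference of -1.22 ± 0.11 (edgeR interaction, adjusted p = 1.43e-12) was called under all alternatives run, as were both of its parts.

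Over the family, the knockdown effects differed between the lines for 6 of the 10 members, MMP3 upward in LM2 relative to MDA-MB-231 and MMP9, MMP14, MMP15, TIMP2 and TIMP3 downward. Of all genes 25.8% passed this test, 13.9% upward and 11.9% downward. MMP9 passed the low-count filter only through the LM2 control libraries, so a downward difference was favoured by its selection. The count of members was 3 with DESeq2, which gave MMP9 no adjusted p, and 3 to 6 when single libraries were left out. Over all genes, 52.9% of calls in LM2 were higher with edgeR and TMM, 53.3% with edgeR and RLE factors and 32.0% with limma on log2(FPKM + 1), which changes the test, the transformation and the scaling together. Of the interaction calls, 54%, 55.9% and 32.3% were upward in the same order. With limma on log2(FPKM + 0.1) the median of all genes stood at -0.13 in LM2 and at -0.10 in the interaction, and TIMP2 in LM2 at -0.37.

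LM2 had more of most members than its parent. Under the TAF7 hairpin 6 members were higher in LM2 (MMP1, MMP2, MMP3, MMP14, TIMP1 and TIMP2) and 1 was lower (TIMP3), where 62.5% of all genes were called, 30.9% as higher and 31.6% as lower. Under the control hairpin 9 were higher, all but MMP13, and 0 were lower at any threshold used, including an unadjusted p under 0.05 and DESeq2. In that comparison 64.4% of all genes were called, 32.2% as higher and 32.1% as lower. The median log2 fold change of the members was 0.91 under the TAF7 hairpin and 1.90 under the control hairpin, beside 0.0044 and 0.024 over all genes. MMP2 passed the low-count filter only through LM2 libraries of both hairpins, and MMP9 and MMP13 only through the LM2 controls. A higher level in LM2 was thus favoured by their selection, for MMP9 and MMP13 under the control hairpin. All of them enter these medians.

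Among the inhibitors, TIMP2 exceeded its MDA-MB-231 level in LM2 by 1.37 ± 0.07 under the TAF7 hairpin and by 1.83 ± 0.07 under the control hairpin (edgeR adjusted p = 8.01e-23 and 1.26e-27). TIMP1 did so by 0.24 ± 0.07 and 0.47 ± 0.08 (edgeR adjusted p = 0.00494 and 6.33e-07), and the first of these was lost without LM2 shTAF7 replicate 3 (0.11, edgeR adjusted p = 0.247). TIMP3 differed in sign, at -0.61 ± 0.08 under the TAF7 hairpin and 0.61 ± 0.08 under the control hairpin (edgeR adjusted p = 1.48e-09 and 1.17e-09). These line comparisons share their libraries with the knockdown comparisons, and the crossing of TIMP3 is the same set of values seen from the other side.

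**Figure D3:**
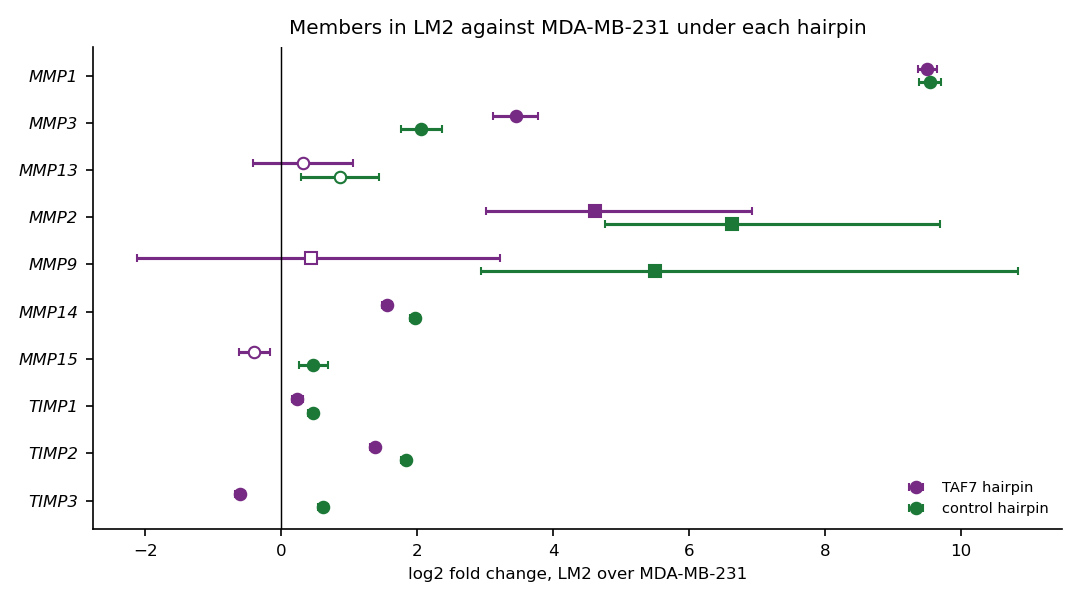
Log2 fold change of each member, LM2 over MDA-MB-231, under the TAF7 hairpin (purple) and the control hairpin (green). Circles are edgeR fits with their standard error, squares (MMP2 and MMP9) are count ratios with 95% counting intervals, and filled symbols passed the test. MMP1 lies near 9.5 under both hairpins, and TIMP3 lies on opposite sides of 0.

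Summed per length, the balance of protease to inhibitor transcripts differed more between the lines than with the hairpin in MDA-MB-231. The 7 MMPs summed to 259.3 and 263.3 FPKM in LM2 shTAF7, 189.7 and 190.9 in the LM2 control, 34.0 and 28.6 in MDA-MB-231 shTAF7, and 24.6 and 25.0 in the MDA-MB-231 control. The 3 TIMPs summed to 136.2 and 147.1, 158.7 and 161.7, 111.9 and 110.3, and 84.7 and 81.0 FPKM in the same order. In LM2 shTAF7 the MMP sum was thus 1.90 and 1.79 times the TIMP sum, against 1.20 and 1.18 times in the LM2 control, so that the 2 groups did not overlap. The ratio was 0.304 and 0.259 in MDA-MB-231 shTAF7 and 0.291 and 0.308 in the MDA-MB-231 control, which overlapped.
MMP1 carried the difference in LM2. Without it the ratio was 0.628 and 0.587 in LM2 shTAF7 and 0.598 and 0.617 in the LM2 control, which overlapped. MMP1 made up 67.0% and 67.2% of the MMP sum in LM2 shTAF7 and 49.9% and 47.7% in the LM2 control, and at most 0.999% in MDA-MB-231, where MMP14 made up 92.7% to 95.1%. These ratios are descriptions of transcript levels within a library, which no scaling between libraries alters, and no test was made of them.

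**Figure D4:**
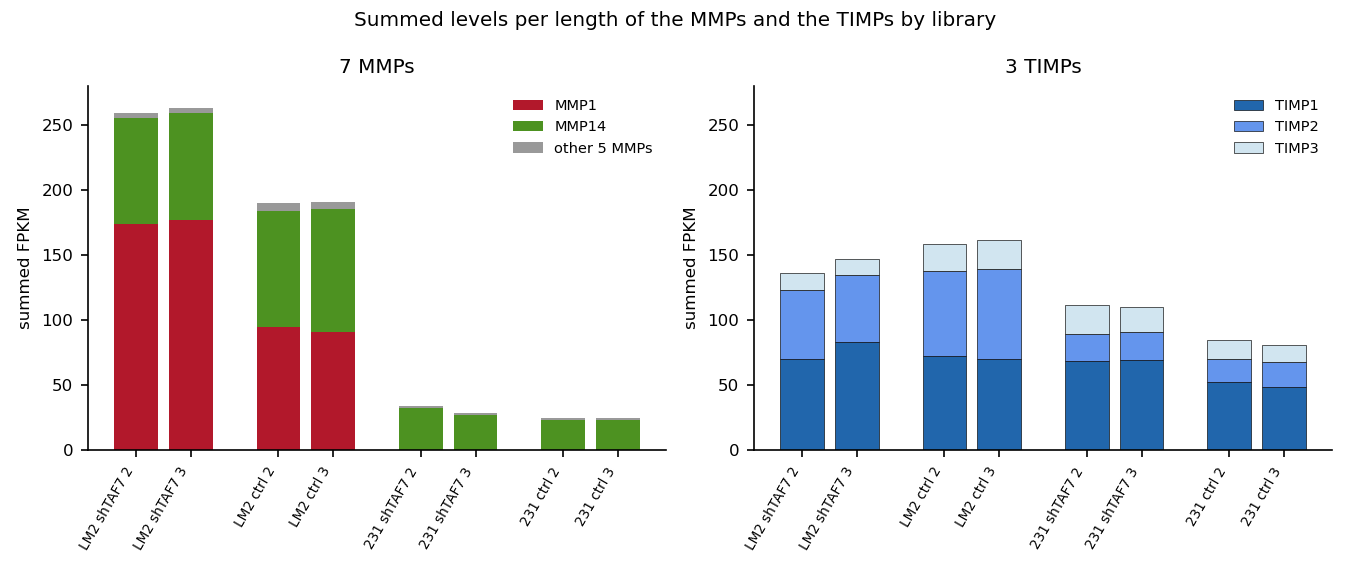
Summed FPKM of the 7 MMPs (left) and the 3 TIMPs (right) in each library, stacked by gene, on one scale. MMP1 and MMP14 fill nearly all of the LM2 columns, MMP1 is too low to be seen in MDA-MB-231, and the TIMP columns of all groups lie between 81.0 and 161.7 FPKM.

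MMP1, MMP3 and MMP13 sit together with 6 other MMP genes in a cluster on chromosome 11, and most of that cluster was at or near 0. In its chromosomal order, MMP7, MMP20, MMP27 and MMP8 had at most 5 counts in any library, as had MMP12 between MMP3 and MMP13. MMP10, a second stromelysin next to MMP1, had 12 and 13 counts in the LM2 shTAF7 libraries, 5 and 15 in the LM2 controls, 2 and 4 in MDA-MB-231 shTAF7, and 2 and 2 in the MDA-MB-231 controls. The high level of MMP1 in LM2 thus stood between a neighbour below 0.5 FPKM and another, MMP3, at 2.28 to 3.0 FPKM.
The flanking genes, which were chosen after their values were seen, went in both directions between the lines. On the MMP7 side, BIRC3, an inhibitor of apoptosis protein, exceeded its MDA-MB-231 level in LM2 by 1.08 ± 0.08 under the TAF7 hairpin and by 2.18 ± 0.08 under the control hairpin, and its paralog BIRC2 by 1.69 ± 0.07 and 1.31 ± 0.07. TMEM123, also on the MMP7 side, was higher in LM2 under the TAF7 hairpin (0.37 ± 0.07) and not called under the control hairpin. On the MMP13 side, DCUN1D5 was not called under either hairpin, and DYNC2H1 was lower in LM2, at -1.30 ± 0.11 and -1.05 ± 0.10. PDGFD was lower in LM2 too, at -1.11 ± 0.18 and -0.94 ± 0.17. With knockdown in LM2, where MMP1 rose, BIRC3 fell (-1.22 ± 0.07, edgeR adjusted p = 1.36e-18), BIRC2 rose (0.21 ± 0.07, edgeR adjusted p = 0.00807) and the other 4 flanking genes were not called.

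**Figure D5:**
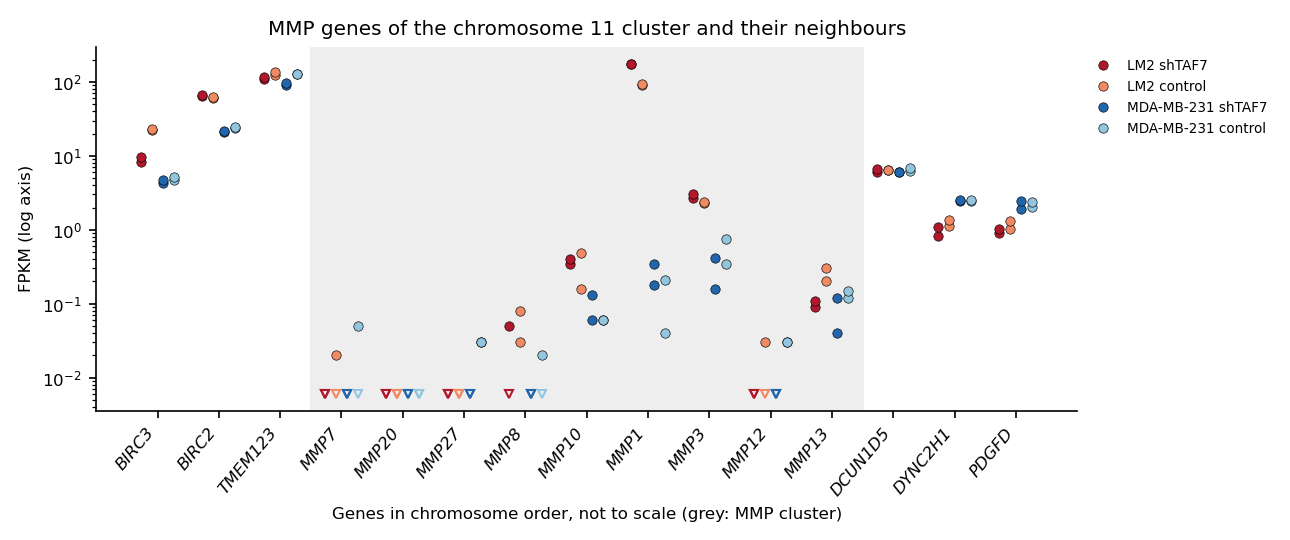
FPKM on a log axis of the MMP genes in the chromosome 11 cluster (grey) and of 3 genes on each side, in chromosome order and not to scale, with 1 point per library and open triangles for libraries listed at 0. MMP1 reaches 91.1 to 176.9 FPKM in the LM2 groups while most other MMP genes of the cluster lie below 0.5 FPKM.

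Reads of MMP1 and MMP3 can overlap exons of the pseudogene WTAPP1 on the opposite strand, which had 0 to 5 counts per library, and those of MMP9 the antisense gene SLC12A5-AS1, with 0 to 1. The strand setting of the counting is not given in the sources used here, so reads of such partners cannot be told apart. WTAPP1 is small beside MMP1 in LM2, but not in MDA-MB-231, where MMP1 had 2 to 16 counts.

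The rest of the family was mostly below the limit for testing. Of the 16 other MMP genes and TIMP4, 7 were tested, and the 10 untested genes had at most 9 counts in a library. In LM2, 0 rose with knockdown by edgeR, also at an unadjusted p under 0.05 and with DESeq2, and 2 fell, where 41.3% of all genes were called. These were MMP19, with 9.63 ± 1.30 CPM in shTAF7 and 14.5 ± 1.71 CPM in the control (-0.60 ± 0.14, edgeR adjusted p = 0.000798), and TIMP4, with 0.702 ± 0.203 and 1.80 ± 0.337 CPM (-1.34 ± 0.37, edgeR adjusted p = 0.00306; 0.0505 without LM2 control replicate 2). In MDA-MB-231, where 25.6% of all genes were called, 1 rose and 1 fell. MMP17, anchored to the membrane by a lipid, had 1.64 ± 0.732 CPM in shTAF7 and 0.638 ± 0.348 CPM in the control (1.31 ± 0.43, edgeR adjusted p = 0.0186), and was not called without control replicate 3 (0.85, edgeR adjusted p = 0.267) or shTAF7 replicate 2 (0.78, 0.312), and was 2.02 without control replicate 2. MMP16, a further membrane-anchored MMP, had 6.62 ± 0.369 and 10.4 ± 0.145 CPM (-0.66 ± 0.15, edgeR adjusted p = 0.000751).

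Between the lines, 3 of these 7 genes were higher in LM2 and 1 was lower under the TAF7 hairpin, against 4 higher and 1 lower under the control hairpin. These counts are near the shares over all genes, 62.5% and 64.4% called. MMP19 was higher by 2.04 ± 0.19 and 2.66 ± 0.18 under the 2 hairpins, and TIMP4 lower at -2.34 ± 0.33 and -1.16 ± 0.27. MMP10 was higher by 2.04 ± 0.70 and 2.29 ± 0.79 (edgeR adjusted p = 0.0102 and 0.0104), from 25 against 6 and 20 against 4 counts. It passed the low-count filter through LM2 libraries alone, so this direction was built into its selection for testing, and under the TAF7 hairpin it was 2.71 without MDA-MB-231 shTAF7 replicate 2. Its calls were lost with DESeq2 (adjusted p = 0.0621 and 0.0508) and without several single libraries (edgeR adjusted p = 0.0619 to 0.341), which are MDA-MB-231 shTAF7 replicate 3 and LM2 shTAF7 replicate 2 under the TAF7 hairpin, and both MDA-MB-231 controls and LM2 control replicate 3 under the control hairpin. MMP16 was higher under the TAF7 hairpin (0.43 ± 0.15, edgeR adjusted p = 0.0137), not without MDA-MB-231 shTAF7 replicate 2 (0.37, 0.0771) or LM2 shTAF7 replicate 2 (0.33, 0.119), and MMP17 under the control hairpin (1.66 ± 0.41, edgeR adjusted p = 0.000478; 2.35 without MDA-MB-231 control replicate 2).

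Among 12 genes for activators, docking partners and other inhibitors of MMPs, 11 were tested, and A2M had 0 counts. In LM2, 2 rose, 3 fell and 6 were not called with knockdown, with a median log2 fold change of -0.16, beside -0.016 over all genes. That is near the 41.3% called over all genes. PLAU, the urokinase protease that starts the plasmin cascade, fell to 125.1 ± 10.8 CPM in shTAF7, against 254.7 ± 8.17 CPM in the control (-1.03 ± 0.07, edgeR adjusted p = 1.01e-16), while its receptor PLAUR rose (0.39 ± 0.07). LRP1, the endocytic receptor that clears MMPs and TIMP complexes, fell to 48.1 ± 3.62 CPM, against 84.3 ± 6.96 CPM (-0.81 ± 0.08). BSG, an inducer of MMP production, rose (0.28 ± 0.07, edgeR adjusted p = 0.00208), though not with limma on FPKM (0.14, adjusted p = 0.105). TFPI2, a serine protease inhibitor of the matrix, fell (-0.23 ± 0.07, edgeR adjusted p = 0.00969), and this was lost without LM2 control replicate 2 (-0.16, 0.191), without LM2 shTAF7 replicate 2 (-0.18, 0.0861) and without the low-count filter (-0.20, 0.063).

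In MDA-MB-231, 3 of the 11 rose and 0 fell by edgeR at the same threshold, with a median of 0.0096, where 25.6% of all genes were called and their median was 0.0081. PLAU and PCSK5 were lower at an unadjusted p under 0.05 by edgeR, and DESeq2 called PLAU lower (adjusted p = 0.0422). TFPI2 rose to 190.3 ± 1.43 CPM in shTAF7, against 125.0 ± 0.366 CPM in the control (0.61 ± 0.07, edgeR adjusted p = 3.42e-09). BSG (0.34 ± 0.07) and PLAUR (0.33 ± 0.07) rose too, PLAUR with an edgeR adjusted p of 0.051 without control replicate 2. Between the lines, 3 of these genes were higher in LM2 and 7 lower under the TAF7 hairpin, against 4 higher and 5 lower under the control hairpin, where 62.5% and 64.4% of all genes were called. LRP1 (0.73 ± 0.09 and 1.67 ± 0.09), CD44 (0.79 ± 0.07 and 0.59 ± 0.07), a docking receptor for MMP9, and BSG (0.26 ± 0.07 and 0.33 ± 0.07) led the higher ones. The lower ones were led by the proprotein convertases PCSK5 (-1.82 ± 0.22 and -2.11 ± 0.21) and PCSK6 (-1.09 ± 0.13 and -0.92 ± 0.13) and by TFPI2 (-1.70 ± 0.07 and -0.85 ± 0.07).

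All 13 genes for transcription factors known to bind MMP promoters were tested. In LM2, 1 rose, 7 fell and 5 were not called with knockdown, with a median log2 fold change of -0.50, beside -0.016 over all genes, of which 21.8% were called higher and 19.4% lower. JUN, a core AP-1 subunit, fell to 179.6 ± 11.5 CPM in shTAF7, against 283.1 ± 21.0 CPM in the control (-0.66 ± 0.07, edgeR adjusted p = 1.1e-10). JUNB (-0.84 ± 0.08) and RUNX2, a factor of bone and of the MMP13 promoter, fell too (-0.83 ± 0.08). JUND rose (0.35 ± 0.09, edgeR adjusted p = 0.00119), but not without LM2 control replicate 2 (0.24, 0.0801), without LM2 shTAF7 replicate 3 (0.23, 0.0793) or with limma on FPKM (0.21, adjusted p = 0.163).

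In MDA-MB-231, 3 of the 13 factors rose and 5 fell, with a median of -0.18, beside 0.0081 over all genes, of which 12.6% were called higher and 12.9% lower. JUND rose to 43.2 ± 4.41 CPM in shTAF7, against 23.4 ± 1.15 CPM in the control (0.89 ± 0.10, edgeR adjusted p = 2.01e-09). JUN rose (0.29 ± 0.07), though not without control replicate 2 (0.25, edgeR adjusted p = 0.09), and so did FOSL1 (0.22 ± 0.07, edgeR adjusted p = 0.0211), a call lost without control replicate 2, control replicate 3 or shTAF7 replicate 3 (0.14 to 0.23, 0.146 to 0.267). FOSB (-0.60 ± 0.14), FOSL2 (-0.43 ± 0.07) and RUNX2 (-0.35 ± 0.09) fell, RUNX2 not without control replicate 3 (-0.31, edgeR adjusted p = 0.0665) or shTAF7 replicate 3 (-0.26, 0.102).

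Between the lines, 7 of the factors were higher in LM2 and 3 lower under the TAF7 hairpin, against 9 higher and 3 lower under the control hairpin. Of all genes 30.9% were called higher and 31.6% lower under the TAF7 hairpin, and 32.2% and 32.1% under the control hairpin. FOS (1.80 ± 0.09 and 1.63 ± 0.08), ETS1 (0.91 ± 0.07 and 1.23 ± 0.07) and ETS2 (0.68 ± 0.08 and 1.21 ± 0.08) were highest in LM2 relative to MDA-MB-231. FOSL2 was lower under both hairpins (-0.94 ± 0.07 and -0.87 ± 0.07). JUNB was lower in LM2 under the TAF7 hairpin (-0.55 ± 0.08) and higher under the control hairpin (0.44 ± 0.08). FOSB was lower under the control hairpin (-0.60 ± 0.14) and not called under the TAF7 hairpin. NFKB1 was lower under both (-0.48 ± 0.08 and -0.20 ± 0.08), the second not without MDA-MB-231 control replicate 3 (-0.14, edgeR adjusted p = 0.239) or LM2 control replicate 2 (-0.13, 0.228).

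For the 4 members with the widest range over the groups, the genes with the most similar pattern were found by Pearson's r of log2 CPM over the 8 libraries among 10750 genes with a mean of at least 5 CPM. They were ZNF503, TFAP2A and GHITM for MMP1 (r = 0.998 each), SPOCK1, TSPAN31 and TRIM11 for MMP2 (r = 0.993), TM9SF4, MKRN2 and COL12A1 for MMP3 (r = 0.984 to 0.991), and FAM241A, SLC6A9 and ZSWIM6 for MMP9 (r = 0.990 to 0.991). The 8 points of each pair fall into 4 groups and share libraries and depth, so r describes little more than the order of the groups.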

How the data were processed

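Read counts per gene were deposited by the authors as whole numbers without normalization. FPKM values were deposited as well. As judged from the values, the authors scaled them to gene length and to the counted reads, and for 3401 genes checked, counts divided by FPKM tracked the totals of the libraries to within 0.0686%. STAR 2.7.10a and build hg19 appear, with no role, in the submitters' processing notes. Which program counted reads, with which strand setting and annotation, is not stated.

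Low counts were filtered with filterByExpr (minimum count 10, minimum total 15), which left 15923 of 61552 genes. Counts were scaled with TMM, and the 8 libraries entered 1 quasi-likelihood model with a mean per group and 4 residual degrees of freedom (edgeR 4.0.16 under R 4.3.3). Calls were made at a Benjamini-Hochberg adjusted p under 0.05 over all tested genes. Standard errors are the log2 fold change divided by the square root of the F statistic, and ± after CPM is the SD of 2 libraries. With 3 counts or fewer in 1 group, a count ratio with an exact 95% interval, which covers counting error only, replaces the fitted fold. With 3 or fewer in both groups no fold is given. The alternatives were RLE factors, DESeq2 1.42.0, no filter, only the 4 libraries compared, the replicate number as a block, limma 3.58.1 on log2(FPKM + 1) and log2(FPKM + 0.1), and each library left out.

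The members and the 3 lists of related genes were chosen with earlier results of these data known. All members are described. From each list up to 3 called genes per direction and comparison with the largest log2 fold change are named. Exon overlaps came from GENCODE release 29, and promoter sequences and gene order from RefSeq. Replicates of a group differed by more than sampling noise (chi-square per degree of freedom 2.34 to 7.24). On simulated data of 15923 genes, with 50 changed per fold, folds of 1.25, 1.5, 2 and 4 were recovered for 30%, 62%, 70% and 92% of genes for the knockdown in MDA-MB-231 and for 32%, 68%, 66% and 88% for that in LM2, and 5.93% and 6.62% of calls were false. The simulated counts followed the fitted spread and few genes were changed, whereas 4070 and 6570 genes were called in the data. These shares thus do not describe the calls reported here.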

Additional observations from a re-analysis of the deposited data

Results flagged for a closer look

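The knockdown effect differed between LM2 and MDA-MB-231 for the following genes by edgeR's interaction test, given as the LM2 effect minus the MDA-MB-231 effect on the log2 scale. Among the members these were TIMP3 (-1.22), MMP15 (-0.87), TIMP2 (-0.46) and MMP14 (-0.42) downward, MMP3 upward (1.38, and 2.18 without MDA-MB-231 shTAF7 replicate 2), and MMP9 downward with no fold (adjusted p = 0.0366). TIMP2 and TIMP3 had effects of opposite sign that each passed the test in its line, while MMP14 was called in MDA-MB-231 only and MMP15 and MMP9 in LM2 only. MMP9 had 3 counts or fewer in each MDA-MB-231 group, too few to see an effect there. It passed the low-count filter only through the LM2 control libraries, which favoured a downward difference. The interaction calls of MMP3, MMP15 and MMP9 were lost in 9 of 15, 8 of 15 and 8 of 14 alternatives.

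TAF7 itself was lowered less in LM2 (0.34), so the comparison sets knockdowns of different depth side by side, and the part of that in the other values was not tested.

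Among the related genes, the difference was -0.86 for the protease PLAU, -0.94 for its clearance receptor LRP1, -0.84 for the inhibitor TFPI2, -2.02 for MMP17 and -1.18 for TIMP4. For the AP-1 subunits it was -0.95 for JUN, -0.99 for JUNB, -0.54 for JUND and 0.61 for FOSB. With DESeq2 the calls of FOSB (adjusted p = 0.0722) and TIMP4 (adjusted p = 0.117) were lost. FOSB was also lost without MDA-MB-231 control replicate 2, MDA-MB-231 shTAF7 replicate 2 or LM2 control replicate 2 (edgeR adjusted p = 0.0578 to 0.0958). TIMP4 was lost without either MDA-MB-231 control, MDA-MB-231 shTAF7 replicate 2, LM2 control replicate 2 or LM2 shTAF7 replicate 2 (0.0791 to 0.198). MMP17 stood at -2.73 without MDA-MB-231 control replicate 2 and was lost without MDA-MB-231 control replicate 3 (-1.56, 0.0594) or MDA-MB-231 shTAF7 replicate 2 (-1.49, 0.0766), and JUND without LM2 control replicate 3 (-0.38, 0.0549).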

How the results depend on the processing

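Over the 10 members and 5 comparisons, 752 alternative values were computed. Of these, 678 kept their direction and their side of the threshold, 52 kept the direction but lost the call, 9 gained a call and 13 changed sign. None of the values that changed sign had been called, and the highest or lowest value beside each is over the libraries left out. They were MMP15 in MDA-MB-231 without control replicate 2 (-0.17) or shTAF7 replicate 2 (-0.12), with a highest value of 0.28, and MMP14 in LM2 without LM2 control replicate 3 (0.00444, lowest -0.0633, and -0.16 with limma on log2(FPKM + 1)). Between the lines under the TAF7 hairpin they were MMP9 without MDA-MB-231 shTAF7 replicate 3 (-0.10, highest 1.05) and MMP13 without MDA-MB-231 shTAF7 replicate 2 (-0.20, highest 1.30). The difference between the knockdown effects changed sign for MMP13 without MDA-MB-231 shTAF7 replicate 3 (0.45, lowest -1.04). For MMP1 it did so with limma on log2(FPKM + 1) with and without a filter (0.75 each, adjusted p = 0.00601 and 0.0377), on log2(FPKM + 0.1) (0.16), and without MDA-MB-231 control replicate 2 (0.75), MDA-MB-231 shTAF7 replicate 2 (0.48), LM2 control replicate 2 (0.00389) or LM2 shTAF7 replicate 2 (0.0137), with a lowest value of -1.60. The cause was not tested.

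With limma on log2(FPKM + 1) without a filter, 1 member and 1118 genes were called in MDA-MB-231 (4 and 4070 with edgeR), 4064 genes in LM2 (6570) and 1762 for the difference between the lines (4113), where 32881 genes were tested in place of 15923. For the difference between the lines DESeq2 called 3 members, against 6. Leaving out 1 library at a time gave 5 to 7 members and 4925 to 6859 genes in LM2, and 3 to 5 members and 2031 to 4408 genes in MDA-MB-231. It gave 6 to 7 members and 9031 to 10010 genes between the lines under the TAF7 hairpin, 8 to 9 and 9077 to 10631 under the control hairpin, and 3 to 6 and 2933 to 4180 for the difference between the effects. Where a group kept 1 library, that library was assumed to vary like the other groups.

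The replicate numbers did not pair the libraries, since deviations from the group means correlated at -0.062 to 0.021 between same-numbered libraries. With the replicate block, 7 members and 6554 genes were called in LM2, 4 and 4053 in MDA-MB-231, 7 and 9901 between the lines under the TAF7 hairpin, 9 and 10203 under the control hairpin, and 6 and 4128 for the difference. Depth limits MMP2, MMP9 and MMP13, and MMP1 in MDA-MB-231, which rest on 26 counts or fewer in a group there.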
